A study of Mus musculus with 12 samples.

Results

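The genes described here are 6 nucleic acid sensors (Ddx58, Ifih1, Dhx58, Tlr7, Zbp1 and Mavs, the last an adaptor of sensors), the DNA exonuclease gene Trex1, and the 2 chains of the type I interferon receptor, Ifnar1 and Ifnar2. These 9 genes were chosen by symbol and read by their Ensembl identifier among 55414 gene records, and all 9 passed the filter on low counts in every comparison. The source of the RNA was CD4+ T cells of the spleen of male wild-type BALB/c mice aged 18 weeks, sequenced as 12 libraries, 3 per group. In the LIP group, periodontitis had been induced by tying a silk ligature around the maxillary second molars, and in the CTL group the mice were anesthetized without a ligature. The cells of all groups were purified by negative selection. On day 0 they were collected right after purification, and on day 2 they had been kept in culture with IL-2 and antibodies to TCRβ and CD28. In place of anti-CD28, which the protocol gives for all, the treatment label reads anti-CD29 in 1 library of each group on day 2 (CTL 93, LIP 96) and anti-CD30 in another (CTL 97, LIP 97). Libraries are named here by group and by the number in their label. The labels do not say whether each library came from 1 mouse or from pooled cells, so the p-values measure the spread between these libraries.

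Cells detect foreign or misplaced nucleic acids with sensors that sit in different compartments. RIG-I (Ddx58) and MDA5 (Ifih1) bind double-stranded RNA in the cytosol and signal through MAVS on mitochondria, LGP2 (Dhx58) lacks the signalling domains of the other RIG-I-like receptors and modulates them, TLR7 binds single-stranded RNA in endosomes, ZBP1 binds Z-form nucleic acids and can start RIPK3-dependent cell death, and TREX1 degrades cytosolic DNA. Their signals induce type I interferons, which act through the IFNAR1 and IFNAR2 chains, and several of the sensors are themselves interferon-stimulated genes.

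The libraries held between 6249094 and 12866751 expected counts. A gene with 0 counts may have a level of up to 3 counts, or 0.233 to 0.480 CPM (counts per 1000000 counts) across libraries, as far as counting error goes. CPM values below are scaled by TMM over the 12 libraries. The summed level of 8 CD4 T cell markers ranged from 2483 to 4404 CPM, and that of the 2 CD8 markers from 4.43 to 13.2 CPM. On day 2, 7 of 8 B cell markers were higher in each of CTL 97, LIP 96 and LIP 97 than in each of the other 3 libraries, with the marker sum at 30.8, 49.1 and 47.2 CPM against 5.50 in CTL 92, 6.09 in CTL 93 and 4.21 in LIP 90. The B cell marker sum was between 8.07 and 14.5 CPM on day 0. The sum of 13 macrophage, monocyte and neutrophil markers was 2.60 to 15.8 CPM, that of 5 NK cell markers 0.955 to 14.8 and that of 10 pancreatic acinar markers 0.602 to 24.2. How many genes passed an adjusted p of 0.05 in edgeR's quasi-likelihood test turned on single libraries. On day 0 the count over all genes was 60, between 13 and 96 without any other library, and 658 without CTL 94. On day 2 it was 0, between 0 and 1 without any other library, and 2014 without LIP 90. In bulk RNA, fewer cells of a type and less RNA per cell cannot be told apart.

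All positions below are from GENCODE M39 on GRCm39. Ddx58 (named Rigi there) lies at chr4:40203772-40239852, Ifih1 at chr2:62425714-62476607, Dhx58 at chr11:100585710-100595097, Tlr7 at chrX:166086758-166113605, Zbp1 at chr2:173033815-173060724 and Trex1 at chr9:108887001-108888802, all on the minus strand. Mavs lies at chr2:131075442-131096740, Ifnar2 at chr16:91169618-91202723 and Ifnar1 at chr16:91281942-91305789, all on the plus strand. The Ifnar genes lie near each other in a cluster of cytokine receptor genes. Trex1 lies within Atrip on the same strand over its whole 1802 bases, so reads could be shared between them. Atrip was at 25.5 to 50.8 CPM, above Trex1 in every group mean. Ifnar2 shares 21975 bases with the readthrough gene Gm21970 on the same strand, which had 0 counts in all 12 libraries. Dhx58 shares 2818 bases with the antisense RNA Dhx58os, which was at most 0.452 CPM. The library kit keeps strand, but the strand setting of the counting is not given in the sources used here.

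Type I interferon acts on genes through the interferon-stimulated response element (ISRE), whose core was searched as GAAANNGAAA on both strands, and interferon-γ acts through the GAS element, searched as TTCNNNGAA, which is its own reverse complement. The search covered RefSeq promoters of GRCm38.p6, which run from 250 bases before to 50 bases after the start site of an entry. Of the 9 genes, 6 matched an entry: Ddx58, Ifih1, Mavs, Trex1, Ifnar1 and Ifnar2. The ISRE core was found in the promoters of the RNA sensors Ddx58 and Ifih1, and the GAS letters in those of the receptor chains Ifnar1 and Ifnar2. Mavs and the 2 entries of Trex1 held neither. Among all 32851 promoters, 3.44% held the ISRE core and 8.3% the GAS letters. Counted per gene, as for the genes described here, the shares were 3.99% and 9.55% of 27025 genes. The 4 matches are shown because they are all those found in the promoters of the genes described here. Each window has 30 bases, in the direction of the gene, with the motif in capitals, and was placed on GRCm39 by an exact match of the promoter.
Ddx58, ISRE core from base 3, chr4:40239804-40239833, minus strand: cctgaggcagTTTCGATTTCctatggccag
Ifih1, ISRE core from base 33, chr2:62476550-62476579, minus strand: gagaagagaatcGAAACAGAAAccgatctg
Ifnar1, GAS from base -5, chr16:91282088-91282117, plus strand: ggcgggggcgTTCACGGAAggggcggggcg
Ifnar2, GAS from base -214, chr16:91169447-91169476, plus strand: tgccaaggccTTCCTGGAAgaagagagtac

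Bases are counted from 1 at the start site of the RefSeq promoter entry, and the base before it is -1. This site is not always the first base of the GENCODE gene given above, and the window of Ifnar1 lies inside that gene. Isg15 below holds 3 matches that overlap, of which the middle one is shown. For comparison, 16 of the 30 interferon-stimulated genes with an entry held the ISRE core (53.3%). These genes formed a pathway list that excludes the 9 genes. The windows of 3 genes with higher levels in all LIP libraries of day 2 are given below as reference examples: Isg15 encodes a ubiquitin-like protein that is attached to other proteins, Stat2 a subunit of the factor that binds the ISRE, and Eif2ak2 the double-stranded RNA-dependent kinase PKR. A match is a string of letters and says nothing of binding in these cells.
Isg15, ISRE core from base -72, chr4:156285328-156285357, minus strand: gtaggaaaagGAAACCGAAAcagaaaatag
Stat2, ISRE core from base -222, chr10:128106135-128106164, plus strand: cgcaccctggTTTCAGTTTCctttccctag
Eif2ak2, ISRE core from base 19, chr17:79189964-79189993, minus strand: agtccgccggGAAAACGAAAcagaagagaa

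Levels of different genes were compared as CPM per kilobase of the transcript tagged as canonical. Zbp1 stood first in all 4 groups and Tlr7 last. In the CTL group on day 0, Zbp1 was at 40.4 CPM per kilobase, Ifnar1 at 36.01 and Ddx58 at 34.5, and the ranges of neighbours in this order overlapped. Trex1 (14.1) and Ifnar2 (13.9) followed and overlapped with each other. Ifih1 (7.54), Mavs (4.58), Dhx58 (2.82) and Tlr7 (0.962) came below them, each without overlap with the gene above. In the LIP group on day 2, Zbp1 stood apart with 152 CPM per kilobase. Ifnar1 (27.2), Ddx58 (22.4), Trex1 (16.1), Ifih1 (16.0), Dhx58 (14.0) and Ifnar2 (13.4) formed a run there in which each range overlapped the next, while Mavs (4.96) and Tlr7 (1.08) stood apart below. With the length of all merged exons instead, 20 of the 36 ranks moved, and Tlr7 stayed last in all 4 groups. Ifnar1 rather than Zbp1 then came first among the LIP libraries of day 0. Ddx58 was the sixth on day 2 in both groups.

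**Figure D1:**
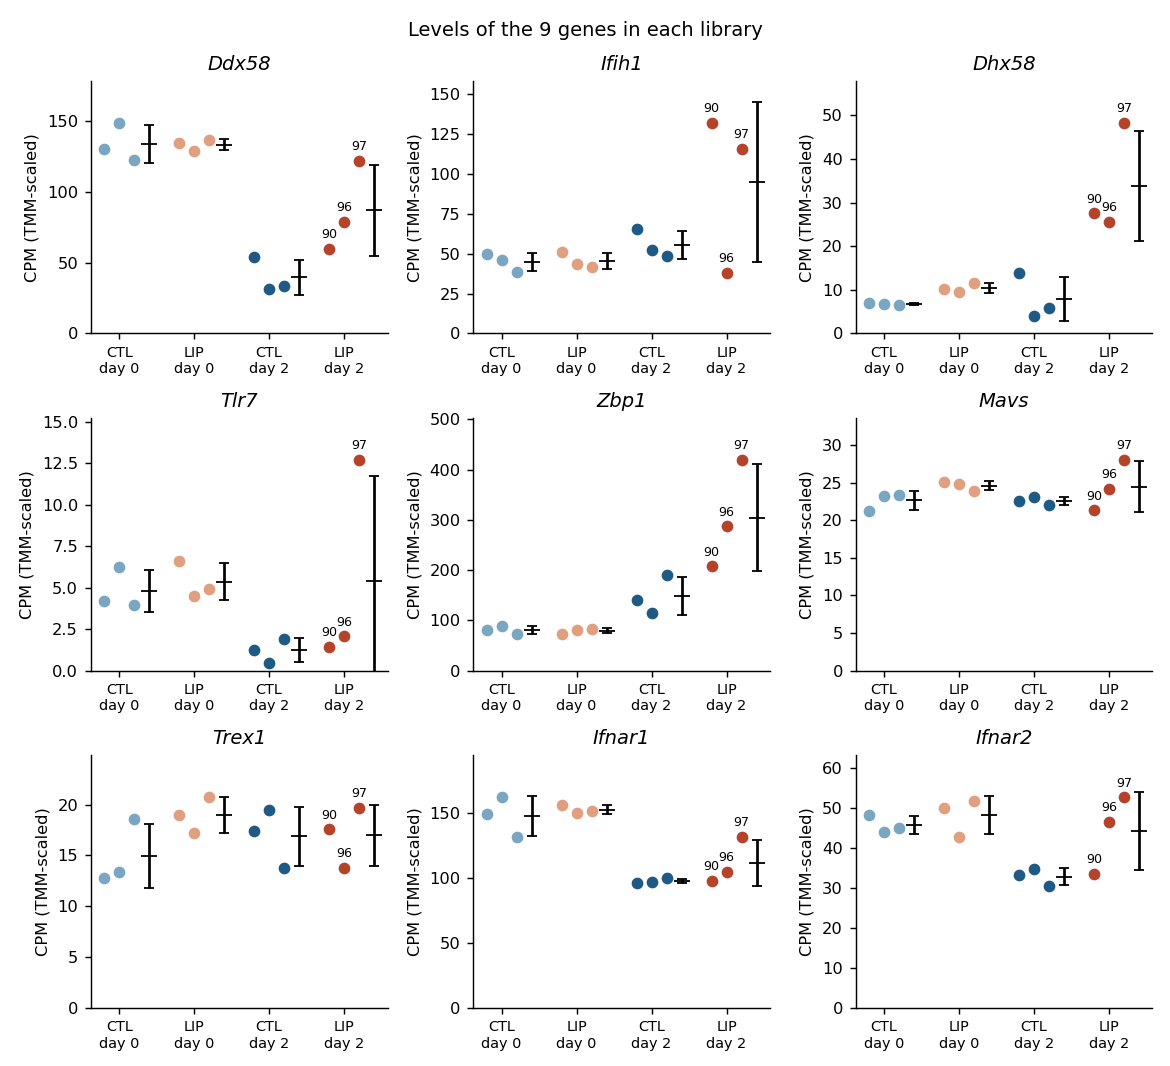
CPM (TMM-scaled, y axis from 0) of each of the 9 genes in each library, by group on the x axis. Dots are libraries, black marks and bars are mean and SD of 3 libraries (the bar of Tlr7 in the LIP group of day 2 is cut at 0), and numbers name the LIP libraries of day 2. Dhx58, Zbp1 and Ddx58 are higher in all 3 LIP libraries than in all 3 CTL libraries on day 2, while LIP 96 is low for Ifih1 and LIP 97 alone is high for Tlr7.

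The first comparison asked whether freshly purified CD4+ T cells from mice with periodontitis differed in these genes. On day 0 the 2 groups were close for most of them, and the exceptions were Dhx58 and Trex1, which were higher in the LIP group by less than 1 on the log2 scale. None of the 9 passed an adjusted p of 0.05 in edgeR's quasi-likelihood test, where 0.427% of all 14064 genes tested did. At an unadjusted p under 0.05 there were 2 of 9, against 13.9% of all genes, and 7 of 9 were higher in the LIP group. Their median log2 fold change was 0.08, and that of all genes was 0.01.

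Dhx58, the modulator among the RIG-I-like receptors, was at 6.93, 6.86 and 6.58 CPM in CTL 88, 89 and 94 and at 10.2, 9.43 and 11.6 CPM in LIP 92, 93 and 94. The ranges of the groups did not meet. The log2 fold change was 0.62 (SE 0.17), or 1.54-fold, with an adjusted p of 0.145. It ranged from 0.54 to 0.69 when single libraries were left out, with adjusted p between 0.0966 and 0.456.

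Trex1 was at 12.8, 13.4 and 18.5 CPM in CTL 88, 89 and 94 and at 19.0, 17.2 and 20.7 CPM in LIP 92, 93 and 94. CTL 94 lay within the range of the LIP group. The log2 fold change was 0.35 (SE 0.16, adjusted p = 0.356). Without CTL 94 it was 0.54 (SE 0.14, adjusted p = 0.0495), and 4.59% of all 14343 genes then passed.

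The RNA sensors upstream of MAVS did not differ between the groups beyond their spread. Ddx58 was at 130.3, 148 and 123 CPM in CTL 88, 89 and 94 and at 134, 129 and 136 CPM in LIP 92, 93 and 94 (log2 fold change -0.0023, SE 0.08). Ifih1 was at 49.9, 46.2 and 38.4 CPM in the CTL libraries and at 51.1, 43.6 and 41.6 CPM in the LIP libraries (log2 fold change 0.03, SE 0.11). The ranges of the groups overlapped for both genes.

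Mavs was at 21.2, 23.2 and 23.4 CPM in CTL 88, 89 and 94 and at 25.1, 24.8 and 23.9 CPM in LIP 92, 93 and 94. The groups did not overlap, as for 19.1% of all genes tested, but the log2 fold change was 0.12 (SE 0.10, adjusted p = 0.633). Zbp1 (log2 fold change -0.02, SE 0.09), Tlr7 (0.15, SE 0.26), Ifnar1 (0.06, SE 0.08) and Ifnar2 (0.08, SE 0.09) overlapped between the groups. The signs of Ddx58 and Zbp1 on day 0 depended on the scaling.

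The second comparison asked the same after 2 days of stimulation. On day 2 the group means of Dhx58, Tlr7, Ddx58 and Zbp1 were more than 2-fold higher in the LIP group, Ifih1 and Ifnar2 were higher by less, and Mavs, Trex1 and Ifnar1 stood near the CTL level. None of the 9, and none of all 14041 genes tested (0.00%), passed an adjusted p of 0.05 in edgeR's quasi-likelihood test. At an unadjusted p under 0.05 there were 5 of 9 (Ddx58, Dhx58, Tlr7, Zbp1 and Ifnar2), against 16.5% of all genes. Of these, 4 also had an absolute log2 fold change over 1, the rule by which the study called differentially expressed genes (DEGs), against 3.71% of all genes. The median log2 fold change was 0.77 for the 9 genes and -0.01 for all genes. DESeq2 called 3 of the 9 at an adjusted p of 0.05 (Ddx58, Dhx58 and Zbp1) and 3.48% of all genes.

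Dhx58 was at 13.7, 4.06 and 5.90 CPM in CTL 92, 93 and 97 and at 27.5, 25.6 and 48.2 CPM in LIP 90, 96 and 97. All LIP libraries were above all CTL libraries, of which CTL 92 was the highest. This was a log2 fold change of 2.07 (SE 0.43), or 4.19-fold, with an adjusted p of 0.120. Without CTL 92 it was 2.74 (SE 0.37, adjusted p = 0.161).

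Ddx58 was at 53.9, 31.4 and 33.3 CPM in CTL 92, 93 and 97 and at 59.6, 78.8 and 122 CPM in LIP 90, 96 and 97. The groups did not overlap, although LIP 90 exceeded CTL 92 by a small margin. The test gave a log2 fold change of 1.12 (SE 0.30), or 2.18-fold, with an adjusted p of 0.150.

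Zbp1, the sensor of Z-form nucleic acids, was at 140.5, 114 and 190.0 CPM in CTL 92, 93 and 97 and at 207, 287 and 419 CPM in LIP 90, 96 and 97. The groups did not overlap here either. Its log2 fold change was 1.03 (SE 0.28), or 2.04-fold, with an adjusted p of 0.150. These were the 3 of 9 genes without overlap, as for 21.5% of all genes tested.

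Ifih1 was at 65.6, 52.3 and 48.5 CPM in CTL 92, 93 and 97 and at 132, 38.0 and 116 CPM in LIP 90, 96 and 97. LIP 90 and LIP 97 were above all CTL libraries, but LIP 96 was below all of them, and the groups therefore overlapped. LIP 96 was above all CTL libraries for Ddx58, Dhx58 and Zbp1. For Ifih1 the log2 fold change was 0.77 (SE 0.39, adjusted p = 0.364).

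Tlr7, the endosomal RNA receptor, was at 1.27, 0.478 and 1.93 CPM in CTL 92, 93 and 97 and at 1.43, 2.06 and 12.7 CPM in LIP 90, 96 and 97. LIP 97 alone stood far above the others, and the rest of the LIP group overlapped with CTL. These levels rest on 4 to 98 counts per library. The log2 fold change was 2.07 (SE 0.88, adjusted p = 0.290), and it was 0.49 without LIP 97.

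TLR7 is well known in B cells and plasmacytoid dendritic cells, so their markers are set beside it. LIP 96 and LIP 97 were alike in B cell marker sum (49.1 and 47.2 CPM) and differed in Tlr7 (2.06 and 12.7 CPM). The sum of 10 dendritic and plasmacytoid dendritic cell markers on day 2 was 15.9, 30.4 and 31.7 CPM in LIP 90, 96 and 97. In the CTL group it was 22.4 to 26.8 CPM, so LIP 97 had the highest sum. The part of other cell types in the level of Tlr7 was not tested.

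**Figure D2:**
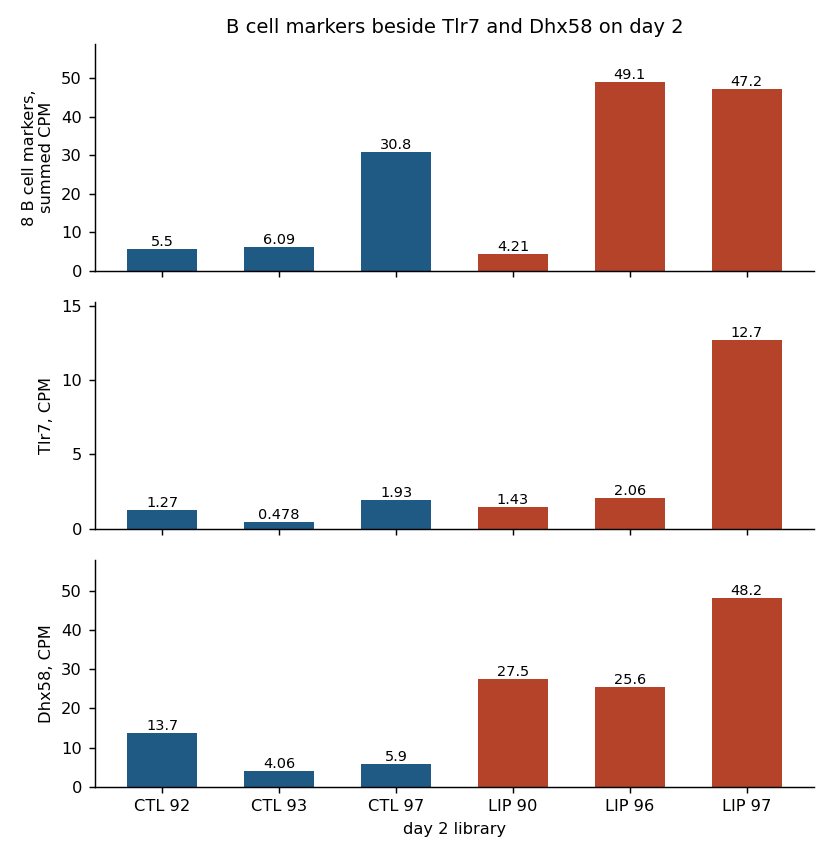
Bars from 0 give, for the 6 libraries of day 2 (blue CTL, red LIP), the summed CPM of 8 B cell markers, the CPM of Tlr7 and the CPM of Dhx58. The marker sum is high in CTL 97, LIP 96 and LIP 97, Tlr7 only in LIP 97, and Dhx58 in all 3 LIP libraries.

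Among the libraries high in B cell markers, Dhx58 was at 25.6 and 48.2 CPM in LIP 96 and 97 against 5.90 in CTL 97, and among those low in them it was at 27.5 in LIP 90 against 13.7 and 4.06 in CTL 92 and 93. Ddx58 and Zbp1 were also higher in LIP than in CTL within both sets, and the smallest gap was that of Ddx58 between LIP 90 (59.6 CPM) and CTL 92 (53.9 CPM). Each set holds only 1 library of one of the groups, and the part of B cells in these levels was not tested.

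Trex1 was at 17.4, 19.5 and 13.7 CPM in CTL 92, 93 and 97 and at 17.6, 13.8 and 19.7 CPM in LIP 90, 96 and 97. The groups overlapped almost wholly, with a log2 fold change of -0.0035 (SE 0.20). Mavs was at 22.6, 23.1 and 22.0 CPM in the CTL libraries and at 21.3, 24.1 and 28.0 CPM in the LIP libraries, with a log2 fold change of 0.10 (SE 0.15). The adaptor and the exonuclease thus showed no difference beyond the spread at this depth.

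Ifnar2, the chain with high affinity for interferon, was at 33.2, 34.8 and 30.5 CPM in CTL 92, 93 and 97 and at 33.5, 46.6 and 52.7 CPM in LIP 90, 96 and 97. LIP 90 lay within the CTL range and the other LIP libraries above it. The log2 fold change was 0.42 (SE 0.18), or 1.34-fold, with an adjusted p of 0.292. Ifnar1 was at 96.2, 96.7 and 99.5 CPM in the CTL libraries and at 97.7, 105 and 132 CPM in the LIP libraries (log2 fold change 0.18, SE 0.14), and only LIP 90 overlapped with CTL.

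Without LIP 90, 5 of the 9 genes passed an adjusted p of 0.05 in edgeR's quasi-likelihood test, all higher in the LIP group, where 7.74% of all 14453 genes tested were called higher. Zbp1 then had a log2 fold change of 1.27 (SE 0.21, adjusted p = 0.00555), Ddx58 1.36 (SE 0.25, 0.00826), Dhx58 2.21 (SE 0.42, 0.00947), Ifnar2 0.61 (SE 0.13, 0.0133) and Tlr7 2.55 (SE 0.72, 0.0449). Ifih1 moved the other way, to 0.48 (SE 0.36, adjusted p = 0.420), and without LIP 96 it was 1.16 (SE 0.16, adjusted p = 0.183). With any other single library left out, 0 of the 9 passed. The LIP libraries that remain without LIP 90 are both high in B cell markers, as given above, while 2 of the 3 CTL libraries are low in them. Their CD8 marker sums (13.2 CPM in LIP 96 and 9.20 in LIP 97) were also above those of the CTL libraries (4.43 to 6.33 CPM). So were their sums of dendritic cell markers (30.4 and 31.7 against 22.4 to 26.8 CPM) and NK cell markers (3.46 and 2.46 against 0.955 to 1.48 CPM). Those of macrophage, monocyte and neutrophil markers were above by a small margin. The sums of CD4 T cell, erythroid and pancreatic acinar markers overlapped with CTL. The part of these cells in the calls without LIP 90 was not tested.

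**Figure D3:**
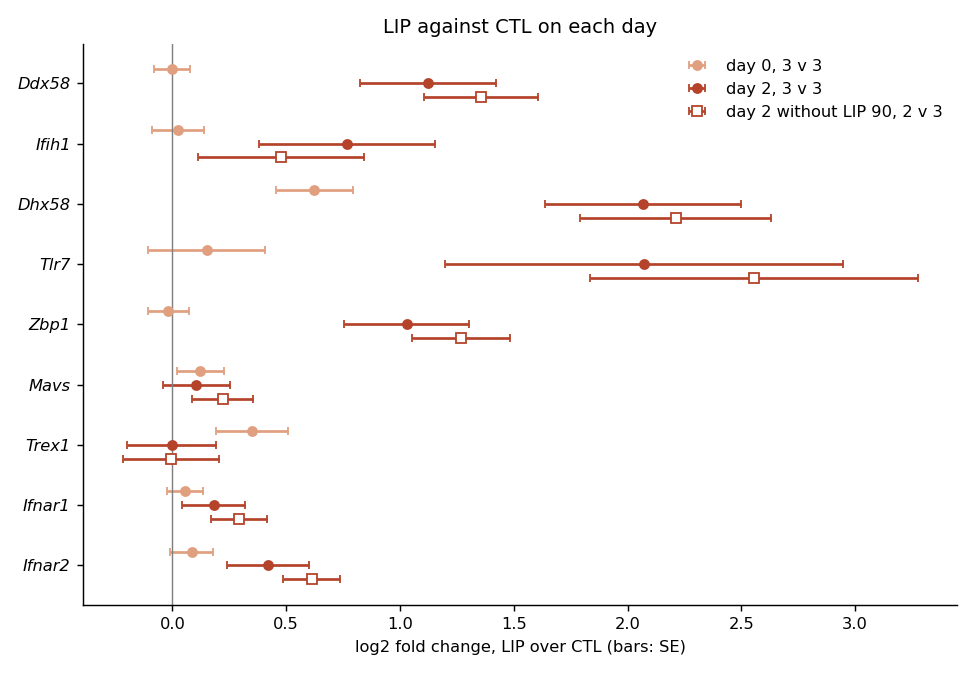
Log2 fold change of LIP over CTL (x axis, bars are SE) for each of the 9 genes on day 0, on day 2, and on day 2 without LIP 90. On day 2 Dhx58 and Tlr7 lie at 2.07, Ddx58 at 1.12 and Zbp1 at 1.03, and Mavs, Trex1 and Ifnar1 lie below 0.2 with all libraries.

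Whether the difference between LIP and CTL changed from day 0 to day 2 was tested as an interaction over all 12 libraries. None of the 9 passed an adjusted p of 0.05 in edgeR's quasi-likelihood test, where 0.0517% of all 15475 genes did, and 3 had an unadjusted p under 0.05 (Ddx58, Dhx58 and Zbp1), against 15.9% of all genes. The difference of the log2 fold changes, day 2 minus day 0, was 1.14 for Ddx58 (SE 0.33, adjusted p = 0.122), 1.06 for Zbp1 (SE 0.31, adjusted p = 0.129) and 1.45 for Dhx58 (SE 0.51, adjusted p = 0.182). Without CTL 92 that of Dhx58 was 2.13 (SE 0.38, adjusted p = 0.0784). For Tlr7 it was 1.90 with an SE of 0.96, and 0.35 without LIP 97. Without LIP 90, Ddx58 (1.34, adjusted p = 0.00680), Zbp1 (1.27, adjusted p = 0.00605) and Ifnar2 (0.52, adjusted p = 0.0462) passed, as did 10.1% of all genes. DESeq2 called Ddx58 and Zbp1 (adjusted p = 0.0246 and 0.0312) and 3.43% of all genes. Trex1 was the one gene with a difference below -0.1 (-0.34, SE 0.26).

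Many of these genes differed between day 0 and day 2, as did most genes. In the CTL group, 5 of the 9 passed an adjusted p of 0.05 between day 0 and day 2, and 69.0% of all 15475 genes tested did. In the LIP group it was also 5 of 9, against 71.8% of all genes, so the share of called genes among the 9 was not above the background in either group. Day and culture cannot be told apart. The 2 comparisons use different libraries, and each gene is given for both groups side by side.

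Ddx58 fell in both groups. It went from a mean of 134 CPM (SD 13.3) on day 0 to 39.5 (SD 12.5) on day 2 in the CTL group, a log2 fold change of -1.76 (SE 0.24, adjusted p = 1.82e-05). The LIP group went from 133 CPM (SD 3.90) to 86.8 (SD 32.0), a log2 fold change of -0.62 (SE 0.23, adjusted p = 0.0252). The call in the LIP group was lost without any 1 of LIP 92, 93 or 94 of day 0 or LIP 90 or 96 of day 2 (adjusted p 0.0568 to 0.0852). The log2 fold change was then between -0.63 (without LIP 93) and -0.40 (without LIP 90). Without LIP 97 it was -0.93 (adjusted p = 0.00118). No library of day 2 overlapped with those of day 0 in the same group.

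Zbp1 rose in both groups, from 80.6 CPM (SD 8.24) to 148 (SD 38.4) in the CTL group and from 79.3 (SD 5.48) to 304 (SD 107) in the LIP group. The log2 fold changes were 0.88 (SE 0.22, adjusted p = 0.00307) and 1.94 (SE 0.23, adjusted p = 4.28e-06). All libraries of day 2 were above all those of day 0 in both groups.

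Dhx58 rose in the LIP group by a log2 fold change of 1.69 (SE 0.34, adjusted p = 0.000537), with all LIP libraries of day 2 above those of day 0. Its log2 fold change in the CTL group was 0.23 (SE 0.38, adjusted p = 0.596). There CTL 92 of day 2 was above all libraries of day 0 and CTL 93 and 97 below them. Without CTL 92 the value was -0.43.

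Ifih1 rose in the LIP group by 1.07 (SE 0.32, adjusted p = 0.00887), although LIP 96 of day 2 was below all LIP libraries of day 0. With library sizes that were not scaled by TMM, its value was 0.71 and no longer passed (adjusted p = 0.0609). The CTL group gave 0.31 (SE 0.32, adjusted p = 0.406).

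Tlr7 fell in the CTL group, from 4.22, 6.26 and 3.95 CPM in CTL 88, 89 and 94 to the levels of day 2 given above (log2 fold change -1.96, SE 0.73, adjusted p = 0.0284). The call was lost without CTL 89, CTL 92 or CTL 93 (adjusted p 0.0886, 0.0676 and 0.100). The LIP group was at 6.61, 4.50 and 4.94 CPM on day 0, and the log2 fold change was -0.05 (SE 0.62). Without LIP 97 the value in the LIP group was -1.60 (adjusted p = 0.00438), so LIP 97 decided it. The summed dendritic cell markers fell between the days from 89.95 to 98.8 CPM to 15.9 to 31.7 CPM over both groups. On day 0, 3 to 5 of the 10 markers had 0 counts in each library, so the sum rested on the others. Which cells the sum came from, and their part in the fall of Tlr7, was not tested.

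Both receptor chains fell in the CTL group. Ifnar1 went from 147 CPM (SD 15.3) to 97.5 (SD 1.77), a log2 fold change of -0.60 (SE 0.11, adjusted p = 0.000370), and Ifnar2 from 45.8 (SD 2.31) to 32.8 (SD 2.13), a log2 fold change of -0.48 (SE 0.15, adjusted p = 0.0108). The call of Ifnar2 was lost without CTL 88 (adjusted p = 0.0518). In the LIP group Ifnar1 fell by 0.46 on the log2 scale (SE 0.11, adjusted p = 0.00260), while Ifnar2 had a log2 fold change of -0.13 (SE 0.15, adjusted p = 0.440).

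Mavs and Trex1 did not pass in either group. Mavs had log2 fold changes of -0.01 in both (SE 0.12 and 0.11), with means between 22.6 and 24.6 CPM in the 4 groups. Trex1 had 0.18 in the CTL group (SE 0.19) and -0.16 in the LIP group (SE 0.18). Atrip, which contains Trex1, fell in both groups, by 0.71 and 0.67 on the log2 scale. With upper-quartile scaling, which moved the median of all genes in the LIP group to -0.32, Mavs (-0.33), Trex1 (-0.48) and Ifnar2 (-0.44) were also called lower there.

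**Figure D4:**
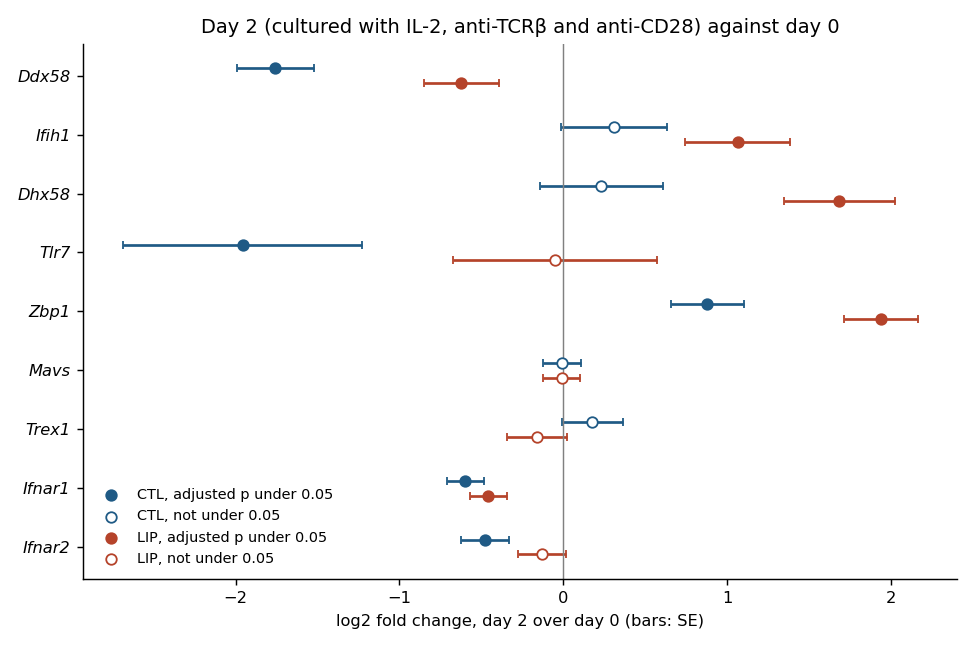
Log2 fold change of day 2 over day 0 (x axis, bars are SE) for each of the 9 genes in the CTL group (blue) and in the LIP group (red). Filled dots have an adjusted p under 0.05. Ddx58 and Ifnar1 are below 0 and Zbp1 above 0 with filled dots in both groups, and Mavs lies near 0 in both.

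The pathway around these genes was described with 9 lists of 168 other genes. On day 0, 0 of the 135 that were tested passed higher in the LIP group and 1 passed lower, the chaperone gene Hsp90b1 of the endosomal receptor list (log2 fold change -0.44, SE 0.08, adjusted p = 0.0364). On day 2, 0 of 133 passed in edgeR's quasi-likelihood test, while 48 were higher and 3 lower at an unadjusted p under 0.05, which 16.5% of all genes had. The median over the lists was 0.21. Without LIP 90, 54 of 137 passed higher and 8 lower at an adjusted p of 0.05, where 7.74% of all genes passed higher and 6.19% lower. These shares are the background of the counts without LIP 90 in each list below. LIP 90 was the only library of day 2 whose removal gave more than 1 call over all genes. The LIP libraries that then remain are both high in B cell markers and above the CTL libraries in CD8 markers, as given above. The part of these cells in the list counts was not tested.

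The interferon-stimulated genes made up most of this. Of the 31 tested on day 2, 29 were higher in the LIP group, 26 at an unadjusted p under 0.05 (16.5% of all genes had one), with a median log2 fold change of 1.5. On day 0 the median of 34 was 0.17. Isg15 was at 3.59, 1.31 and 2.38 CPM in CTL 92, 93 and 97 and at 21.7, 26.2 and 55.6 CPM in LIP 90, 96 and 97. The groups were far apart, with a log2 fold change of 3.79 (SE 0.46, adjusted p = 0.0568). Oasl1, a relative of the oligoadenylate synthetases, had 2.83 (SE 0.36, adjusted p = 0.0596). Ifi27l2a had 1.18 (SE 0.21, adjusted p = 0.103). Without LIP 90, 28 of 35 passed higher, against 7.74% of all genes. The filter on low counts then kept 35 of these genes rather than 31, so the counts with and without LIP 90 are not over the same genes.

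In the list of interferon receptor signalling, 6 of 21 genes had an unadjusted p under 0.05 on day 2, against 16.5% of all genes, all higher in the LIP group, and the median was 0.20. Without LIP 90, 7 of 21 passed higher at an adjusted p of 0.05 and 1 lower. Stat2 was at 125, 73.4 and 83.4 CPM in CTL 92, 93 and 97 and at 198, 192 and 287 CPM in LIP 90, 96 and 97, with no overlap and a log2 fold change of 1.26 (SE 0.24, adjusted p = 0.108). Usp18, which binds the IFNAR2 chain and dampens signalling, had 2.94 (SE 0.42, adjusted p = 0.0894), and the phosphatase gene Ptpn2 had 0.48 (SE 0.11, adjusted p = 0.131). Usp18 was at 54.4 to 135 CPM in the LIP libraries and at 7.76 to 15.3 CPM in the CTL libraries.

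Among the kinases and interferon regulatory factors downstream of the sensors, the median of 14 genes on day 2 was 0.04, and 2 passed higher and 1 lower without LIP 90, against 7.74% and 6.19% of all genes. Irf7, the factor that amplifies interferon production, stood out with a log2 fold change of 2.68 (SE 0.52, adjusted p = 0.118). It was at 23.4, 6.69 and 11.4 CPM in CTL 92, 93 and 97 and at 47.0, 72.4 and 149 CPM in LIP 90, 96 and 97. Ikbke, the kinase gene IKKε, had -0.40 (SE 0.13) and Azi2, an adaptor of TBK1, 0.34 (SE 0.15).

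Regulators of the RIG-I-like receptors had a median of 0.18 over 17 genes, and 3 of them had an unadjusted p under 0.05, a share near the 16.5% of all genes. Without LIP 90, 5 of the 17 passed higher and 1 lower. Ifi35 had a log2 fold change of 0.94 (SE 0.21, adjusted p = 0.131), Trim25, a ubiquitin ligase for RIG-I, 0.73 (SE 0.19, adjusted p = 0.150), and Zc3hav1, which encodes the antiviral zinc finger protein ZAP, 0.52 (SE 0.22, adjusted p = 0.291). In cytosolic DNA sensing, the median of 16 genes was 0.06, and 3 passed higher and 1 lower without LIP 90. The genes with the smallest p there belong to the interferon-inducible p200 family, Ifi204 at 1.57 (SE 0.39), Ifi203 at 1.43 (SE 0.44) and Mndal at 1.28 (SE 0.43), whereas Cgas was at 13.7 to 18.3 CPM in the CTL libraries and 15.8 to 20.3 in the LIP libraries. Members of this family are close paralogs that can share reads.

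Genes of nucleic acid degradation and editing had a median of 0.33 over 15 genes, with 6 higher at an unadjusted p under 0.05, against 16.5% of all genes, and 7 of 15 passed higher at an adjusted p of 0.05 without LIP 90. Eif2ak2 had 1.56 (SE 0.39, adjusted p = 0.140), Samhd1, which hydrolyses deoxynucleotides, 0.74 (SE 0.22, adjusted p = 0.174) and the RNA editing enzyme gene Adar 0.63 (SE 0.16, adjusted p = 0.144). The other endosomal receptors and their partners had a median of -0.07 over 12 genes, 0 of them with an unadjusted p under 0.05 in edgeR's test, and 1 passed higher and 1 lower without LIP 90, near the 7.74% and 6.19% of all genes. Tlr9 was at most 0.482 CPM in any library and Tlr3 at most 0.689. Of the 6 partners of ZBP1 in cell death, 1 passed higher and 2 lower without LIP 90, against the same shares of all genes. Mlkl, which forms pores in the cell membrane, had 0.58 (SE 0.15, adjusted p = 0.150), Ripk3, which activates MLKL, -0.51 (SE 0.20, adjusted p = 0.252) and Fadd 0.26 (SE 0.14).

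**Figure D5:**
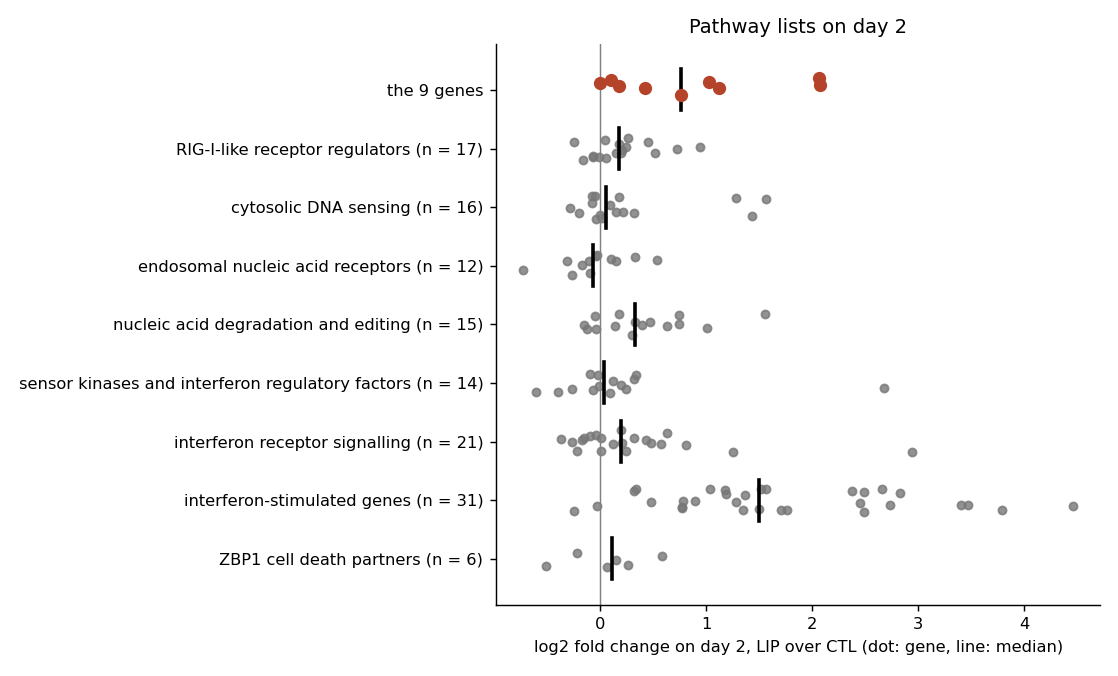
Log2 fold change on day 2, LIP over CTL (x axis), for the 9 genes (red) and for the tested genes of 8 pathway lists (grey). Each dot is a gene and each black line a median, 0.77 for the 9 genes and 1.5 for the interferon-stimulated genes.

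Transcripts of the ligands were at or near 0. Of 18 type I interferon genes, 14 had 0 counts in all 12 libraries, Ifnb1 among them, and 3 had 1 count in all. Each library with 0 counts allows a level of up to 0.233 to 0.480 CPM. Ifnk had 1 to 11 counts per library. The type III genes Ifnl2 and Ifnl3 had 0 counts. Ifng, the type II interferon gene, rose with culture in both groups (log2 fold change 3.15, SE 0.45, in the CTL group and 2.11, SE 0.46, in the LIP group). On day 2 it was at 40.6, 28.9 and 16.1 CPM in CTL 92, 93 and 97 and at 21.3, 11.5 and 7.00 CPM in LIP 90, 96 and 97, with overlap and a log2 fold change of -1.10 (SE 0.42, adjusted p = 0.248).

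The interferon-stimulated genes were also compared between the days in each group. In the CTL group 8 of 35 rose and 16 fell with a median of -0.65, and in the LIP group 17 rose and 6 fell with a median of 0.95. Of all genes tested, 35.3% rose and 33.7% fell in the CTL group, and 36.6% rose and 35.2% fell in the LIP group. The test of the difference itself, the interaction, called 0 of the 35 at an adjusted p of 0.05 in edgeR's quasi-likelihood test and 24 at an unadjusted p under 0.05, against 15.9% of all genes, all of them with the larger log2 fold change in the LIP group. Without LIP 90, 22 of 36 passed at an adjusted p of 0.05, all in that direction, where 5.64% of all genes passed in it. Over all lists, 59 genes rose and 43 fell in the CTL group, and 68 rose and 25 fell in the LIP group, of 138 tested.

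Irf4, a factor of T cell activation, rose by log2 fold changes of 6.06 (SE 0.19) and 6.19 (SE 0.19) in the CTL and LIP groups, and the TBK1 adaptor gene Tbkbp1 by 4.53 and 4.06. Ikbke fell by 1.60 and 1.98 on the log2 scale. The list of interferon receptor signalling also covers the interferon-γ receptor. Of its kinase genes, Jak1, which is bound to the IFNAR2 chain, fell by 1.25 and 1.17, and Jak2 rose by log2 fold changes of 2.63 and 2.56. The partners of ZBP1 rose where they passed: Mlkl by 5.84 and 6.38, Casp6 by 2.70 and 2.95, and Ripk3 by 2.26 and 1.32. Mlkl was at 0 to 0.921 CPM on day 0 and at 17.9 to 34.7 on day 2.

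Likeness between genes was described by Pearson's r of log2 CPM over the 12 libraries after the mean of each day was subtracted, among 15475 genes. The 12 libraries are the same for every pair, they differ in depth, and the values carry no test. Differences between LIP and CTL within a day were not subtracted and remain in r. Ddx58 was most like Helz2 (r = 0.99), Irf7 (0.97) and Slfn8 (0.97), and Dhx58 was most like Trim34a (0.99), Xaf1 (0.98) and Ifi44 (0.98). Zbp1 was most like Ifi208 (0.98), Med10 (0.97) and Gm43694 (0.97). Tlr7 was most like Slfn1 (0.93), Mndal (0.92) and Ifi203 (0.91).

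Among the 9 genes, Ddx58 and Dhx58 were the most alike pair (r = 0.93), followed by Tlr7 with Ifnar1 (0.89) and Tlr7 with Zbp1 (0.88). On day 2, Tlr7, Ifnar1 and Zbp1 were each highest in LIP 97 (12.7, 132 and 419 CPM), and r without LIP 97 was not computed. Ifih1 was less like the other sensors, with 0.45 to Ddx58, 0.55 to Dhx58 and 0.32 to Zbp1. Its nearest genes were Dnajc13 (0.90), Reep3 (0.86) and Gm37672 (0.84). Trex1 was at 0.08 to Ddx58 and -0.13 to Zbp1, and its nearest genes were Gm19409 (0.89), Gm37226 (0.86) and Mrgpre (0.86). Mavs was nearest to 1700047K16Rik (0.92), Aftph (0.92) and C130036L24Rik (0.90). Ifnar1 was nearest to Prkce (0.95), Nrip2 (0.94) and Chrnb2 (0.93), and Ifnar2 to Prrc1 (0.95), Vasp (0.95) and Slc1a4 (0.94).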

How the data were processed

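Gene expression in CD4+ T cells of the spleen was measured in 12 RNA-seq libraries, whose titles gave the groups. The authors ran FastQC 0.11.9 and Trimmomatic, aligned reads to GRCm39, and counted them with RSEM 1.3.0 and Bowtie2. The values deposited are expected counts, without normalization. The version of Trimmomatic differs between the labels (0.38) and the methods. A further deposited table for each day holds the authors' comparisons, with their own CPM, fold changes and p-values. It was used for symbols only, and 2 of its columns, from unlabelled libraries, were not used here.

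The counts, 73267 of which were not whole, were rounded and tested in R 4.3.3 with edgeR 4.0.16 (filterByExpr, TMM, quasi-likelihood test). LIP and CTL were compared within each day, and the days and the interaction in 1 fit of 12 libraries. Adjustment (Benjamini-Hochberg) was over all genes tested. The SE is the absolute log2 fold change divided by the square root of F. With 3 against 3, an exact permutation test cannot go below 0.1, and none was run. Log2 CPM for likeness had 0.5 added. Alternatives were RLE, upper-quartile and unscaled library sizes, DESeq2 1.42.0, limma-voom (limma 3.58.1) for the interaction, other filters on low counts, other libraries in the fit, the library number as a block, and leaving out each library. Scripts were tested on simulated data. Of the records, 54749 were matched to GENCODE M39. Figures were drawn with matplotlib 3.10.9 in Python 3.11.15. The promoters were RefSeq entries of GRCm38.p6.

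Besides the 9 genes, the text names up to 3 genes with the smallest p in each list and comparison, the 3 genes most like each of the 9, markers where they stand beside a result, and a few others chosen after their values were seen (Cgas, Tlr3, Tlr9, Atrip, Gm21970, Dhx58os, Ifnk, Ifnb1). The marker lists of other cell types are reported where they touch a result. The 9 genes, the lists and the tests were chosen with earlier results of these data known.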

Additional observations from a re-analysis of the deposited data

How the results depend on the processing

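No paired analysis was possible within a day because the groups compared share at most 1 number, and the groups compared between the days share none. Over all 12 libraries, 4 numbers occur in 2 libraries each, in different groups, and the correlation of their deviations from the group means over 15475 genes was -0.0105 (92), -0.055 (93), 0.11 (94) and -0.054 (97), so the numbers were not taken to pair the libraries. Fits with the number in them were added after the data were seen. With the number as a block in edgeR, which leaves 1 residual degree of freedom and gives no weight to the 4 libraries with a number of their own (CTL 88 and 89, LIP 90 and 96), the interaction called 4 of the 9 genes (Ddx58, Ifih1, Dhx58 and Zbp1, 3.55% of all genes), and the culture 3 in CTL (44.2%) and 3 in LIP (44.5%). With this block, Ddx58 (0.22), Tlr7 (0.0498), Mavs (0.22), Trex1 (0.54) and Ifnar2 (0.34) changed sign for the culture in the LIP group, and Mavs (0.31) and Trex1 (0.36) in the interaction. The culture calls of Ifnar1 in both groups and of Ifnar2 in the CTL group were not kept with it. Ifnar1 then had log2 fold changes of -0.46 in CTL and -0.26 in LIP, and Ifnar2 -0.25 in CTL. With the number as a random block in limma-voom the counts were 0 (0.0517% of all genes), 5 (68.1%) and 5 (71.3%), and Mavs was 0.0064 in the CTL group.

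The number of the 9 genes with an adjusted p under 0.05 was 0 on day 0 under all settings that kept the 12 libraries, and 0 to 1 when single libraries were left out. On day 2 it was 0, but 3 with DESeq2 (3.48% of all genes), 4 without a filter on low counts (2.57%) and 3 with all 12 libraries in one fit (5.01%), and 0 to 5 with single libraries left out. For the interaction it was 0, but 2 with DESeq2 (3.43% of all genes), 4 without a filter (2.89%) and 0 to 3 with single libraries left out. For the culture in the LIP group it was 5, but 8 with upper-quartile scaling (73.5% of all genes) and 7 with library sizes alone (73.8%). Mavs, Trex1 and Ifnar2 gained a call under both, and Ifih1 lost it with library sizes alone. With that scaling and with library sizes alone, the median of all genes between the days lay between -0.36 and -0.21. In the CTL group the count was 5, but 6 with upper-quartile scaling, which added Mavs (adjusted p = 0.0467; 71.6% of all genes), and 4 with at least 10 counts in every library (71.3%), a filter under which Tlr7 was not tested. It was 4 to 5 with single libraries left out. In the LIP group it was 4 to 6 with single libraries left out. The cause of these changes was not tested.

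Values near 0 changed sign. On day 0, Ddx58 was 0.0073 with upper-quartile scaling, 0.067 with library sizes alone and 0.0046 without a filter, and Zbp1 was 0.052 with library sizes alone. On day 2, Trex1 was 0.0106 with RLE, 0.0105 with DESeq2, 0.034 without a filter and 0.0058 in the fit of 12 libraries. For the culture in the CTL group, Dhx58 (-0.0502) and Trex1 (-0.11) changed with upper-quartile scaling, Trex1 (-0.0115) with library sizes alone and Mavs (0.033) without a filter. In the LIP group, Tlr7 was 0.0148 with DESeq2 and 0.0028 without a filter, and Mavs 0.0021 with RLE and 0.031 without a filter. The interaction of Mavs was 0.0125 with RLE and 0.0101 with DESeq2, and that of Ifnar1 was -0.031 with library sizes alone.

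With single libraries left out, these results also changed sign. On day 0, Ddx58 ranged from -0.066 to 0.075, Ifih1 from -0.076 to 0.10, Tlr7 from -0.028 to 0.39, Zbp1 from -0.097 to 0.0503 and Ifnar1 from -0.025 to 0.12. On day 2, Trex1 ranged from -0.13 to 0.14. For the culture, Dhx58 ranged from -0.43 to 0.55 and Mavs from -0.029 to 0.052 in the CTL group, and Tlr7 from -1.60 to 0.42, Mavs from -0.10 to 0.087 and Ifnar2 from -0.26 to 0.045 in the LIP group. The interaction of Mavs ranged from -0.10 to 0.087. Of the other log2 fold changes of the 9 genes over the settings that kept all libraries, 307 kept direction and call, 27 gained a call and 4 lost it. With single libraries left out, 377 kept both, 10 gained a call and 9 lost it. Of the counts of the pathway lists, 311 stayed the same and 58 moved under the settings that kept all libraries. With single libraries left out, 405 stayed the same and 27 moved. Depth limits Tlr7 most, with 4 to 98 counts per library on day 2.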
